A study of Mus musculus with 12 samples.

Results

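Oxidative phosphorylation is carried out by 5 protein complexes of the inner mitochondrial membrane, and the genes that encode their subunits in the nucleus were followed here across 4 groups of sorted mouse keratinocytes. A gene was taken as a member when its symbol in the array's annotation began with Nduf (complex I), Uqcr (complex III), Cox4 to Cox8 (complex IV) or Atp5 (ATP synthase), or was Sdha, Sdhb, Sdhc or Sdhd (complex II). This rule found 59 of the 11287 genes with a probe set of their own, and it used no measured value. RNA came from back skin epidermis of WT and K14ΔNLef1 female mice aged 9.5 weeks, sorted by FACS into CD34+ITGA6+ cells and ITGA6+ cells, which the study's methods give as CD34 negative. K14ΔNLef1 mice express from the keratin 14 promoter, which is active in basal keratinocytes, a Lef1 that lacks its β-catenin binding end, so the transgene is on in both populations. The 4 groups of 3 arrays each were therefore WT CD34+ITGA6+, K14ΔNLef1 CD34+ITGA6+, WT ITGA6+ and K14ΔNLef1 ITGA6+, and biological replicate is the labels' own word for them. The CD34+ITGA6+ gate collects the hair follicle bulge, where stem cells of the follicle rest between growth phases, and the study used these profiles to ask what ΔNLef1 changes in the epidermis.

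Complexes I and II pass electrons from NADH and succinate to ubiquinone, complex III passes them on to cytochrome c, and complex IV hands them to oxygen. Complexes I, III and IV pump protons as they do so, and ATP synthase lets the protons flow back through a rotor that drives the catalytic head making ATP. Complexes I, III and IV and ATP synthase each also contain subunits encoded by mitochondrial DNA, which the symbol rule does not cover. Hair follicle stem cells are known for their use of glycolysis.

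The values are log2 of the deposited array intensities, and a gene's value is the median over its probe sets. Differences are log2 differences between group means with the standard error (SE) of a limma fit to all 12 arrays, each setting 3 arrays against 3, and a gene was called when its p-value was under 0.05 after Benjamini-Hochberg adjustment across 5712 tested genes. The labels held in the arrays: Lef1 was higher in K14ΔNLef1 cells by 6.07 ± 0.24 in the CD34+ITGA6+ gate and 6.44 ± 0.24 in the ITGA6+ gate, and Cd34 was higher in CD34+ITGA6+ cells by 6.43 ± 0.19 in WT and 6.07 ± 0.19 in K14ΔNLef1 mice. All 5 basal keratinocyte markers passed the filter on low values, with a mean level of 10.94 to 11.50 over the arrays. From the melanocyte, endothelial, T cell and myeloid marker lists 0 members passed it, and from the fibroblast, muscle and adipocyte lists 2 each. Array medians ran from 7.35 to 7.63, and the replicate 2 arrays of both CD34+ITGA6+ groups had the lowest, at 7.35 and 7.36. These arrays also stood apart in the members, so the counts that rest on them are given with and without them.

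Of the 59 members, 50 lay above the array median in at least 3 of the 12 arrays and were tested, and they were read by 299 probe sets. Complex I gave 26 tested members of 27, complex II 4 of 4, complex III 4 of 4, complex IV 6 of 11 and ATP synthase 7 of 8. Both complex I assembly factors under the pattern, Ndufaf1 and Ndufaf2, were tested. The pattern also took in Dmac2, Dmac2l and Emc8, whose older symbols Atp5sl, Atp5s and Cox4nb resemble those of subunits, and only Emc8 was tested. Emc8 belongs to a complex of the endoplasmic reticulum, and its population differences were -0.06 ± 0.20 in WT and -0.08 ± 0.20 in K14ΔNLef1 cells.

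The members left out by the filter included every tissue isoform of complex IV in the table. Cox6a2 and Cox8b, the isoforms of heart and skeletal muscle, ran from 7.05 to 7.53 and from 5.75 to 6.64 over the 12 arrays. Cox4i2, best known from lung, ran from 6.25 to 7.04, and Cox7b2, a testis isoform, from 2.43 to 4.08. Cox7b (5.93 to 7.22), Ndufb11 (5.11 to 6.99), Atp5pb (5.64 to 6.57), Dmac2 (6.06 to 7.68) and Dmac2l (5.56 to 6.73) were also near or under the array medians. Because probe sets differ in how brightly they hybridise, these levels do not rank the genes against each other.

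By group mean, the members were lowest in CD34+ITGA6+ cells and highest in K14ΔNLef1 ITGA6+ cells. For each array the median over the 50 tested members was taken of the deviation from the gene's mean over the 12 arrays. In K14ΔNLef1 ITGA6+ cells this median deviation was 0.29, 0.35 and 0.30 in replicates 1 to 3, and in WT ITGA6+ cells it was 0.04, 0.07 and 0.26. In WT CD34+ITGA6+ cells it was -0.03, -0.54 and -0.08, and in K14ΔNLef1 CD34+ITGA6+ cells 0.08, -0.50 and -0.19. All 3 K14ΔNLef1 ITGA6+ arrays therefore lay above the other 9, and the replicate 2 arrays of both CD34+ITGA6+ groups lay well below the rest. The CD34+ITGA6+ and WT ITGA6+ arrays overlapped, with K14ΔNLef1 CD34+ITGA6+ replicate 1 above WT ITGA6+ replicates 1 and 2.

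**Figure D1:**
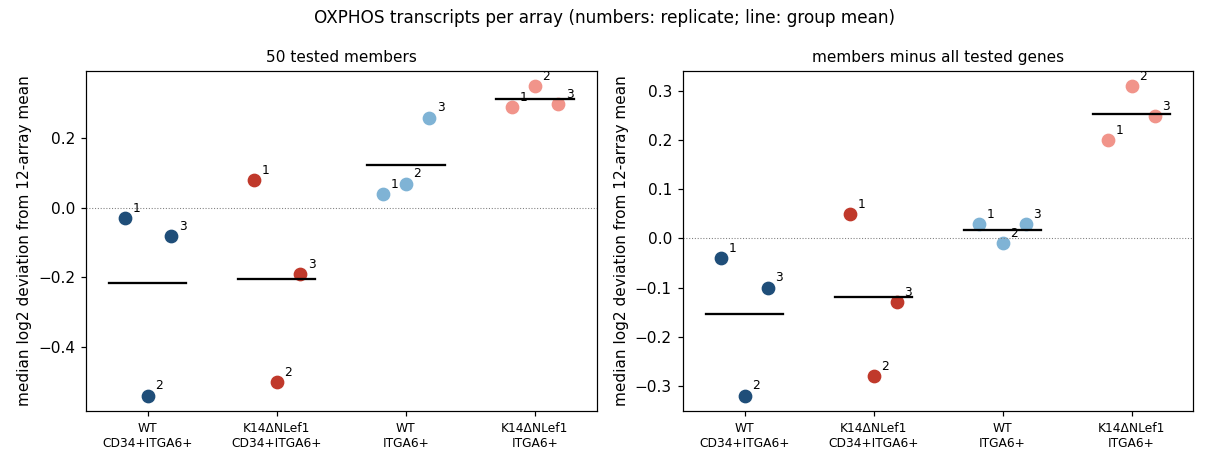
Median log2 deviation per array over the 50 tested members (left) and the same minus the median over all 5712 tested genes (right), by group on the x axis, with numbered points for arrays and a line for the group mean. The 3 K14ΔNLef1 ITGA6+ arrays sit at 0.20 to 0.31 on the right-hand axis, above all other arrays, and the replicate 2 arrays of the CD34+ITGA6+ groups sit lowest at -0.32 and -0.28.

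The same median over all tested genes was -0.22 in each of these replicate 2 arrays and between -0.07 and 0.22 elsewhere, so part of the shift was shared by all genes. After subtracting the all-gene median, the members lay at 0.20 to 0.31 in K14ΔNLef1 ITGA6+ cells and at -0.01 to 0.03 in WT ITGA6+ cells, with no overlap. In CD34+ITGA6+ cells the subtracted values were -0.04, -0.32 and -0.10 in WT and 0.05, -0.28 and -0.13 in K14ΔNLef1 arrays, which overlap each other. K14ΔNLef1 CD34+ITGA6+ replicate 1, at 0.05, also lay above all WT ITGA6+ arrays. Without the subtraction, each complex lay above 0 in every K14ΔNLef1 ITGA6+ array. The median deviation there was 0.28 to 0.32 for complex I, 0.22 to 0.33 for complex II and 0.29 to 0.42 for complex III. It was 0.23 to 0.36 for complex IV and 0.28 to 0.34 for ATP synthase. WT ITGA6+ replicate 3 also lay above 0 in each complex, at 0.27, 0.22, 0.37, 0.23 and 0.36 in the same order. Its all-gene median was 0.22, against 0.04 to 0.09 in the K14ΔNLef1 ITGA6+ arrays.

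**Figure D2:**
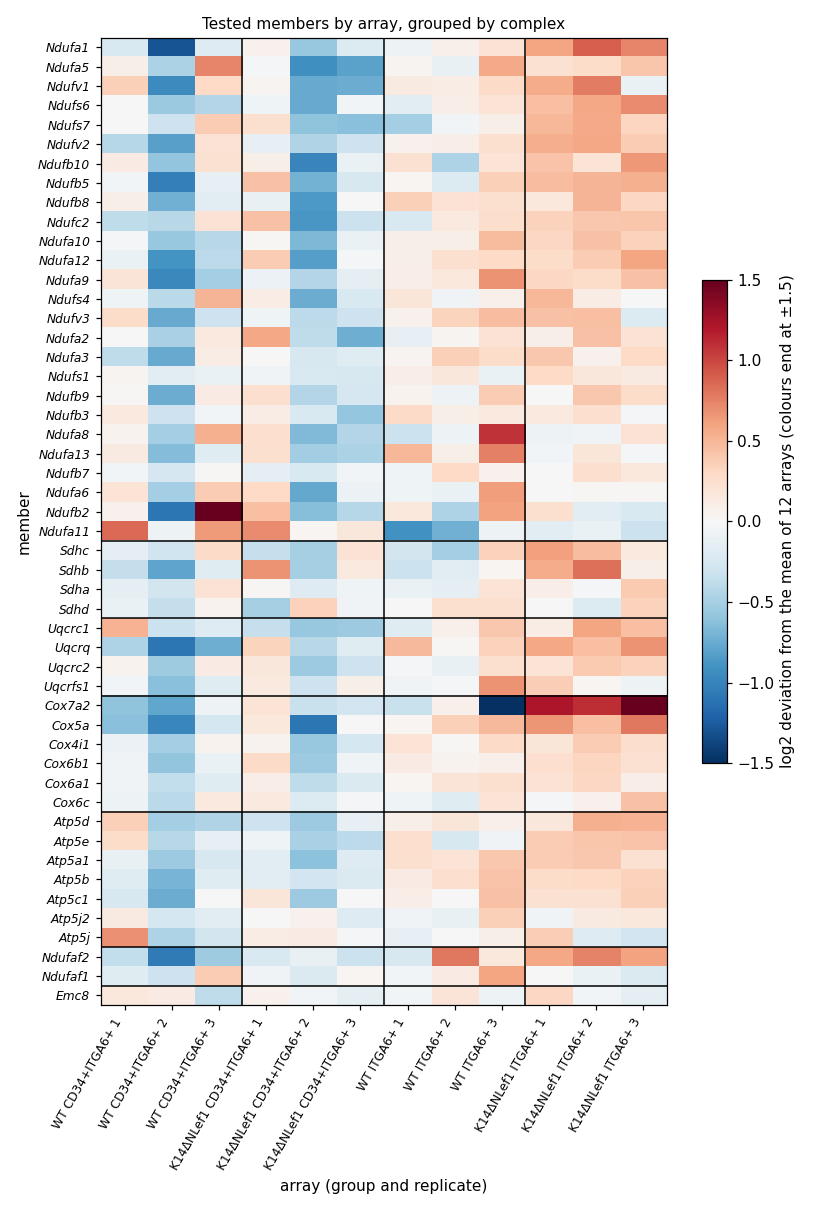
Log2 deviation of each of the 50 tested members (rows, grouped by complex) from its mean over the 12 arrays (columns, grouped by genotype and population), with red above and blue below the mean. The replicate 2 columns of both CD34+ITGA6+ groups are blue over most rows and the 3 K14ΔNLef1 ITGA6+ columns are red over most rows.

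In WT mice, 45 of the 50 tested members were lower in CD34+ITGA6+ than in ITGA6+ cells, as were 66.6% of all genes tested, with a median difference of -0.29 against -0.17 over all genes tested. Called members numbered 6, or 12%, against 17.2% of all genes in either direction. Of these, 5 fell, namely Uqcrq, Ndufaf2, Atp5b, Atp5a1 and Cox5a (10% of members, against 11.5% of all genes called lower), and Ndufa11 rose. The groups did not overlap, in the lower direction, for 11 members (22.0%, against 22.4% of all genes), so the members' share was near that of all genes. Same-numbered WT arrays deviated together. With the replicate as a block within WT arrays 3 members remained called, Uqcrq, Cox5a and Ndufa11, against 17.6% of all genes. Without both CD34+ITGA6+ replicate 2 arrays the same 3 of 50 were called, against 13.7% of all genes. There 32 of 50 members were lower, with a median difference of -0.13 against -0.10 over all genes. Leaving out WT CD34+ITGA6+ replicate 2 alone left 2 called, against 13.1% of all genes. Leaving out WT ITGA6+ replicate 1, 2 or 3 left 3, 1 and 2, against 15.7%, 13.1% and 12.5% of all genes. With arrays centred on their medians 38 of 50 were lower, with a median of -0.19 against -0.08.

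In K14ΔNLef1 mice, 47 of the 50 tested members and 65.8% of all genes were lower in CD34+ITGA6+ than in ITGA6+ cells, with a median difference of -0.51 against -0.15 over all genes. Called members numbered 9 (18%, against 12.9% of all genes in either direction) and all fell, against 8.28% of all genes called lower. They were Ndufs6, Cox7a2, Uqcrc1, Ndufa1, Atp5a1, Ndufv2, Ndufaf2, Atp5e and Atp5d. The groups did not overlap, in the lower direction, for 25 members (50%, against 22.8% of all genes). Centring the arrays left the median at -0.43 against -0.07, with 46 of 50 lower and 9 called, 8 of them shared. Same-numbered K14ΔNLef1 arrays also deviated together. With the replicate as a block within K14ΔNLef1 arrays 11 members were called, 8 of them shared, against 13.7% of all genes. Without both CD34+ITGA6+ replicate 2 arrays the median was -0.36 against -0.08 and 44 of 50 were lower. Only Ndufa1 and Ndufaf2 then remained called, against 9.1% of all genes. Leaving out K14ΔNLef1 CD34+ITGA6+ replicate 2 alone left 0 called by limma, against 8.37% of all genes. There 44 were lower and 12 had an unadjusted p under 0.05. Leaving out K14ΔNLef1 ITGA6+ replicate 3 left 0, against 8.72%, with 48 lower and 21 at an unadjusted p under 0.05. All-gene counts at that level are not given for these runs, so 12 and 21 are not shown to exceed the background. In the fit to all arrays, 25 of 50 members fell at that level and 0 rose, against 1076 and 431 of 5712 genes. The count of calls was 14 without K14ΔNLef1 CD34+ITGA6+ replicate 1 and 3 without replicate 3, against 12.3% and 10.6% of all genes. It was 2 and 1 without K14ΔNLef1 ITGA6+ replicates 1 and 2, against 8.63% and 9.91%. Among these left-out runs, members had the larger share of calls only without K14ΔNLef1 CD34+ITGA6+ replicate 1.

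The WT and K14ΔNLef1 comparisons share no array. The CD34+ITGA6+ group of each, though, holds a low replicate 2 array, with a median deviation of -0.54 in WT and -0.50 in K14ΔNLef1 cells. These arrays move both comparisons the same way. The difference was negative in both for 43 of 50 members, and called in both for 2, Atp5a1 and Ndufaf2. With the replicate block within the genotype both lost the WT call (limma adjusted p = 0.0858 and 0.077) and Atp5a1 its K14ΔNLef1 call (adjusted p = 0.0644), and Cox5a was then the member called in both. Only Ndufa11 was higher in CD34+ITGA6+ cells of both genotypes. By probe set, 247 of 299 (82.6%) were lower in WT and 277 (92.6%) in K14ΔNLef1 CD34+ITGA6+ cells. By gene, 66.6% and 65.8% of all genes were lower. Shares over all probe sets, and of all genes negative or called in both genotypes, are not given for comparison. In bulk RNA of sorted cells, a smaller share of cells that express a gene and less of its RNA per cell cannot be told apart.

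**Figure D3:**
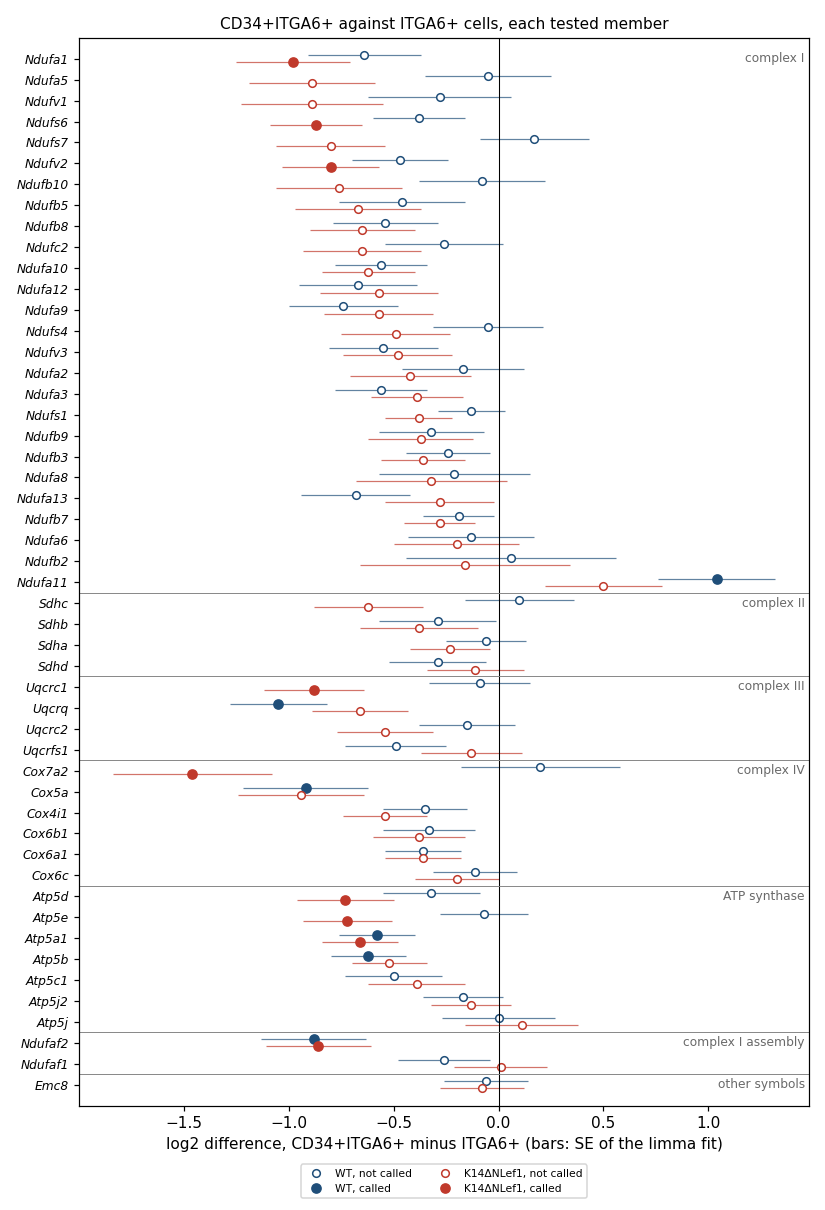
Log2 difference between CD34+ITGA6+ and ITGA6+ cells (x axis) for each tested member (y axis, by complex), in WT (blue) and K14ΔNLef1 (red), with bars for the SE of the limma fit and filled points for called members. Nearly all points lie left of 0, and Ndufa11 is the member to the right of 0 in both genotypes.

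In complex I, 23 of 26 tested subunits were lower in WT and 25 of 26 in K14ΔNLef1 CD34+ITGA6+ cells, with medians of -0.27 and -0.53. Ndufa1, a small subunit of the membrane arm, measured 9.86, 8.80 and 9.89 in WT and 10.15, 9.52 and 9.88 in K14ΔNLef1 CD34+ITGA6+ arrays. In ITGA6+ arrays Ndufa1 measured 10.01, 10.16 and 10.31 in WT and 10.68, 10.99 and 10.82 in K14ΔNLef1 mice. The populations did not overlap within either genotype, and the difference was -0.98 ± 0.27 (adjusted p = 0.0275) in K14ΔNLef1 and -0.64 ± 0.27 (adjusted p = 0.125) in WT cells. Ndufs6, which sits in the matrix arm near the NADH-oxidising end, measured 10.60, 9.90 and 10.62 in K14ΔNLef1 CD34+ITGA6+ against 11.11, 11.24 and 11.37 in K14ΔNLef1 ITGA6+ arrays. It fell by 0.87 ± 0.22 (adjusted p = 0.0200), and in WT arrays, at 10.65, 10.10 and 10.22 against 10.49, 10.76 and 10.86, the populations overlapped. A single probe set reads Ndufs6.

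Ndufv2, an iron-sulphur subunit of the module that oxidises NADH, measured 9.78, 9.45 and 9.59 in K14ΔNLef1 CD34+ITGA6+ against 10.45, 10.49 and 10.29 in K14ΔNLef1 ITGA6+ arrays. All of the former lay below all of the latter, and it fell by 0.80 ± 0.23 (adjusted p = 0.0319), with 6 of 7 probe sets lower. In WT arrays it measured 9.48, 9.09 and 10.12 against 9.97, 10 and 10.14, which overlap. The 4 core subunits tested, Ndufs1, Ndufs7, Ndufv1 and Ndufv2, which carry the flavin or iron-sulphur centres, ranged from -0.38 to -0.89 in K14ΔNLef1 and from 0.17 to -0.47 in WT cells. Of these only Ndufv2 was called.

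Ndufa11 went the other way. This membrane subunit, known to lie where complex I meets complex III in the respiratory supercomplex, measured 10.82, 9.89 and 10.60 in WT CD34+ITGA6+ against 9.06, 9.24 and 9.89 in WT ITGA6+ arrays. The lowest of the former and the highest of the latter were both 9.89 after rounding, without overlap, and it rose by 1.04 ± 0.28 (adjusted p = 0.0174). In K14ΔNLef1 mice it measured 10.67, 9.99 and 10.13 against 9.79, 9.86 and 9.64, with no overlap and a difference of 0.50 ± 0.28 that was not called. Its 3 probe sets differed by 0.15, 0.38 and 1.04 in WT cells, so the size rests on 1 of them, and the call was lost with the mean over probe sets.

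Ndufaf2 is an assembly factor that binds a late intermediate of complex I and is absent from the finished enzyme. It measured 9.51, 8.81 and 9.34 in WT CD34+ITGA6+ against 9.63, 10.66 and 10.03 in WT ITGA6+ arrays. In K14ΔNLef1 mice it measured 9.65, 9.76 and 9.55 against 10.45, 10.62 and 10.48. Neither pair of groups overlapped, and it fell by 0.88 ± 0.25 (adjusted p = 0.0242) in WT and by 0.86 ± 0.25 (adjusted p = 0.0336) in K14ΔNLef1 cells, with all 3 probe sets lower in each, the WT call being lost with the block. The other assembly factor, Ndufaf1, differed by -0.26 ± 0.22 and 0.01 ± 0.22.

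Complex II, which is also an enzyme of the citrate cycle, had 0 called members by limma in either genotype. Its flavoprotein Sdha differed by -0.06 ± 0.19 in WT and -0.23 ± 0.19 in K14ΔNLef1 cells, and its iron-sulphur subunit Sdhb by -0.29 ± 0.28 and -0.38 ± 0.28. The membrane anchors Sdhc and Sdhd differed by 0.10 ± 0.26 and -0.29 ± 0.23 in WT, and by -0.62 ± 0.26 and -0.11 ± 0.23 in K14ΔNLef1 cells. Sdhc in K14ΔNLef1 cells was the one of these with an unadjusted p under 0.05.

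In complex III all 4 tested members were lower in both genotypes. Uqcrq, a small subunit that adjoins cytochrome b, measured 8.71, 8.09 and 8.45 in WT CD34+ITGA6+ against 9.66, 9.20 and 9.52 in WT ITGA6+ arrays. These ranges did not overlap, and Uqcrq fell by 1.05 ± 0.23 (2.07-fold, adjusted p = 0.00462), with all 4 probe sets lower. It was the one call among the members that held under every alternative run, with adjusted p up to 0.0376. In K14ΔNLef1 arrays Uqcrq measured 9.51, 8.76 and 9.0 against 9.76, 9.63 and 9.85, without overlap, and the difference of -0.66 ± 0.23 was not called (adjusted p = 0.0728).

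Uqcrc1, one of the large matrix-facing proteins of complex III, measured 9.29, 9.06 and 9.09 in K14ΔNLef1 CD34+ITGA6+ against 9.75, 10.23 and 10.08 in K14ΔNLef1 ITGA6+ arrays. It fell by 0.88 ± 0.24 (adjusted p = 0.0265), with all 15 probe sets lower. In WT arrays it measured 10.16, 9.31 and 9.44 against 9.45, 9.71 and 10.04, where the groups overlapped and the difference was -0.09 ± 0.24. Of its probe sets 12 of 15 were lower there too, with differences from -1.15 to 0.09, so this value depends on the middle probe sets. Its partner Uqcrc2 differed by -0.15 ± 0.23 in WT and -0.54 ± 0.23 in K14ΔNLef1 cells, and Uqcrfs1, the Rieske iron-sulphur protein, by -0.49 ± 0.24 and -0.13 ± 0.24.

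In complex IV, Cox5a and Cox7a2 passed the test, each in 1 genotype. Cox5a, a matrix-facing subunit read by a single probe set, measured 10.70, 10.35 and 11.07 in WT CD34+ITGA6+ against 11.36, 11.68 and 11.82 in WT ITGA6+ arrays and fell by 0.92 ± 0.30 (adjusted p = 0.0467). In K14ΔNLef1 mice it measured 11.49, 10.24 and 11.34 against 11.99, 11.78 and 12.12, and the difference of -0.94 ± 0.30 just missed the threshold (adjusted p = 0.0523). The groups did not overlap in either genotype. Cox4i1, Cox6a1 and Cox6b1, the widely expressed forms of their subunits, differed by -0.35 ± 0.20, -0.36 ± 0.18 and -0.33 ± 0.22 in WT and by -0.54 ± 0.20, -0.36 ± 0.18 and -0.38 ± 0.22 in K14ΔNLef1 cells.

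Cox7a2 is the form of subunit 7A used in most tissues, and it gave the widest differences among the members. It measured 9.90, 9.80 and 10.31 in K14ΔNLef1 ITGA6+ arrays and 8.89, 8.35 and 8.40 in K14ΔNLef1 CD34+ITGA6+ arrays. In WT mice it measured 8.36, 8.77 and 6.87 in ITGA6+ and 8.09, 7.91 and 8.61 in CD34+ITGA6+ arrays. The K14ΔNLef1 ITGA6+ arrays thus stood above all others, while the WT populations overlapped. Cox7a2 fell by 1.46 ± 0.38 (adjusted p = 0.0214) in K14ΔNLef1 CD34+ITGA6+ cells. Its 3 probe sets differed by -0.01, -1.46 and -0.72 there, so the gene's value is that of its middle probe set, and the call was lost with the mean over probe sets.

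In ATP synthase the called members were subunits of F1, the part that holds the catalytic head and the central stalk. The 5 tested F1 subunits were all lower in both genotypes, with medians of -0.50 in WT and -0.66 in K14ΔNLef1 cells. Atp5a1, the α subunit, measured 10.70, 10.27 and 10.57 in WT CD34+ITGA6+ against 11.05, 11.01 and 11.22 in WT ITGA6+ arrays. In K14ΔNLef1 mice it measured 10.64, 10.20 and 10.62 against 11.19, 11.21 and 11.04. Neither genotype's populations overlapped, and it fell by 0.58 ± 0.18 (adjusted p = 0.0444) in WT and 0.66 ± 0.18 (adjusted p = 0.0293) in K14ΔNLef1 cells, with 12 and 13 of 13 probe sets lower, both calls being lost with the block. Atp5b, the β subunit that binds and makes ATP, measured 11.32, 10.80 and 11.31 against 11.62, 11.75 and 11.93 in WT arrays and fell by 0.62 ± 0.18 (adjusted p = 0.0292). In K14ΔNLef1 arrays it measured 11.34, 11.21 and 11.28 against 11.77, 11.79 and 11.84, again without overlap, and the difference of -0.52 ± 0.18 was not called (adjusted p = 0.0742).

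The central stalk subunits Atp5d (δ) and Atp5e (ε) fell in K14ΔNLef1 CD34+ITGA6+ cells. Atp5e measured 10.49, 10.06 and 10.16 there against 10.93, 10.97 and 10.98 in K14ΔNLef1 ITGA6+ arrays, a difference of -0.72 ± 0.21 (adjusted p = 0.0354). In WT arrays it measured 10.83, 10.13 and 10.43 against 10.80, 10.31 and 10.50, and the groups overlapped. Atp5d measured 8.58, 8.34 and 8.77 against 9.06, 9.42 and 9.41 in K14ΔNLef1 mice, a difference of -0.73 ± 0.23 whose adjusted p of 0.0498 lay at the threshold. In WT arrays Atp5d measured 9.24, 8.38 and 8.44 against 8.98, 9.07 and 8.97, which overlap. Atp5c1, the γ subunit, differed by -0.50 ± 0.23 and -0.39 ± 0.23. The membrane and stalk members Atp5j and Atp5j2 lay nearer 0, between -0.17 and 0.11 over both genotypes.

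**Figure D4:**
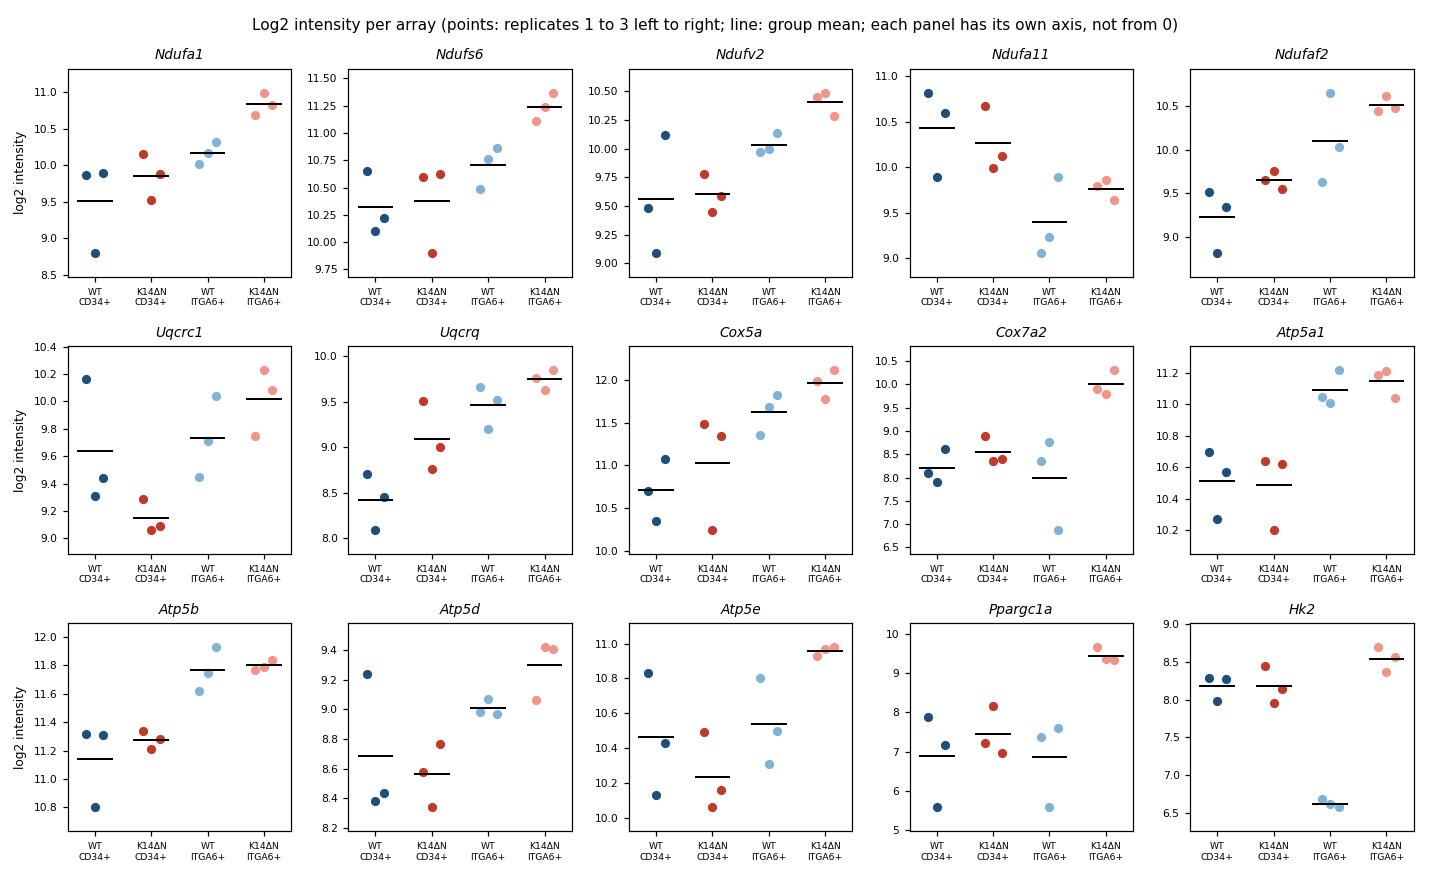
Log2 intensity on each array (points, replicates 1 to 3 from left to right) with the group mean (line) for the 13 members called in at least 1 comparison and for Ppargc1a and Hk2, with the 4 groups on the x axis and a separate y axis per panel that does not start at 0. K14ΔNLef1 ITGA6+ arrays lie highest for Cox7a2, Ndufs6 and Ndufa1, and Ndufa11 is the panel in which the CD34+ITGA6+ groups lie above the ITGA6+ groups.

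Promoters of the called members were read for motifs of transcription factors known to bind genes of the respiratory chain. The windows hold 250 bases before and 50 after the start, from RefSeq on GRCm38.p6, and 47 members had an entry, with 52 promoters. On either strand, the NRF1 motif (GCATGCGC) was in 6 of the 52 (11.5%, against 2.71% of 32851 promoters), the motif of ETS-type factors such as GABP (CCGGAAG) in 8 (15.4%, against 8.86%) and the YY1 motif (AAGATGGCG) in 8 (15.4%, against 1.40%). The end of the ETS motif and the start of the YY1 motif share 3 letters and can overlap, and 1 member, Atp5j, held both. At least 1 of these motifs was found for 18 of 47 members, and the TATA box (TATAAA) in 5 promoters (9.62%, against 13.6%). A match is a run of letters and not a measured binding site.

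Of the 11 called members whose promoters were read here, 4 held 1 of the NRF1, ETS or YY1 motifs. Their promoters are shown because they include members that fell in K14ΔNLef1 CD34+ITGA6+ cells and Ndufa11, which rose in WT CD34+ITGA6+ cells. Capitals mark the motif. In Uqcrc1 (chr9:108936398-108936697, plus strand) and Ndufa11 (chr17:56717512-56717811, plus strand) the NRF1 motif overlaps its own reverse complement, giving a run of matches on both strands, from 31 to 40 bases after the start in Uqcrc1 and at positions -60 to -51 counted from it in Ndufa11. In Ndufs6 (chr13:73328433-73328732, minus strand) the YY1 motif lies 34 to 42 bases after the start, and in Atp5e (chr2:174464052-174464351, minus strand) the ETS motif lies on the opposite strand, at positions -102 to -96.
Uqcrc1: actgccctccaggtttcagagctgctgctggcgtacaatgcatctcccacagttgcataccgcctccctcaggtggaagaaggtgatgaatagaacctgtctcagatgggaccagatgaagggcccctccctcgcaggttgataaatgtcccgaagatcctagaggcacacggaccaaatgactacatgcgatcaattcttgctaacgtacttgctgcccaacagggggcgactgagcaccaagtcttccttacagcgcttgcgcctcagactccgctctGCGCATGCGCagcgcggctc
Ndufa11: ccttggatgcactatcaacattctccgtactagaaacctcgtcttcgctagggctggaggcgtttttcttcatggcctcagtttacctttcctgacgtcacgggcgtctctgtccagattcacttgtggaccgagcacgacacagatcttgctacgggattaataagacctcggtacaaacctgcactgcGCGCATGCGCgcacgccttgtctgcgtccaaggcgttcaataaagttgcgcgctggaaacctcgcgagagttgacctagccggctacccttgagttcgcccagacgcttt
Ndufs6: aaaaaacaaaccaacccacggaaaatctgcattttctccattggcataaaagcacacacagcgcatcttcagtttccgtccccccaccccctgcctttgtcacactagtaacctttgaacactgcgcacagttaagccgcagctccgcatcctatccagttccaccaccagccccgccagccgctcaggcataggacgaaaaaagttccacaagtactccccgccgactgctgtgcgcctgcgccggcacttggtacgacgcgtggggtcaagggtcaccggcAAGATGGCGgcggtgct
Atp5e: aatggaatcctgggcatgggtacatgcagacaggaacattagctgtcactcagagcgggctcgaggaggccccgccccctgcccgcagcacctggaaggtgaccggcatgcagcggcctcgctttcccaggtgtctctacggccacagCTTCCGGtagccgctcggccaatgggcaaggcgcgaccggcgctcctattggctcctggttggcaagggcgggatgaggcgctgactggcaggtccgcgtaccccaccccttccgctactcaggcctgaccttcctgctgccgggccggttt
The same NRF1 letters stand in the promoter of Uqcrc1, which fell in K14ΔNLef1 CD34+ITGA6+ cells, and of Ndufa11, the member that was higher in CD34+ITGA6+ cells of both genotypes. Both genes were shown because they were called, and motif content was not tested against expression.

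With the transgene, members were mostly higher in ITGA6+ cells and divided in CD34+ITGA6+ cells. In ITGA6+ cells, 40 of 50 tested members were higher in K14ΔNLef1 than in WT mice, whereas 54.8% of all genes were lower, with a median difference of 0.15 against -0.03 over all genes. Cox7a2 alone was called (2.0% of members, against 5.3% of all genes in either direction and 2.08% called higher). The groups did not overlap for 10 members, all higher in K14ΔNLef1 cells (20.0%, against 9.42% of all genes). Without WT ITGA6+ replicate 3, the highest WT array, the median was 0.25 against 0.02 and 5 of 50 were lower, and with centred arrays it was 0.18 against 0.00 with 9 lower. These differences share the K14ΔNLef1 ITGA6+ arrays with the K14ΔNLef1 population comparison, so the pair of results is not independent.

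Cox7a2 rose by 2.0 ± 0.38 (4.0-fold, adjusted p = 0.00562) in K14ΔNLef1 ITGA6+ cells, and the WT arrays at 8.36, 8.77 and 6.87 lay below the K14ΔNLef1 arrays at 9.90, 9.80 and 10.31. The call held without each array in turn, but its probe sets differed by -0.22, 2.0 and 0.42, and it was lost with the mean over probe sets (adjusted p = 0.37). The next members by p were Ndufa1 at 0.67 ± 0.27 (adjusted p = 0.229), Ndufs6 at 0.54 ± 0.22 (adjusted p = 0.250), Ndufs7, which passes electrons to ubiquinone, at 0.62 ± 0.26 (adjusted p = 0.257) and Sdhb at 0.64 ± 0.28 (adjusted p = 0.295). Ndufs7 measured 9.45, 9.52 and 9.27 in K14ΔNLef1 against 8.44, 8.91 and 9.04 in WT ITGA6+ arrays, and Sdhb 9.71, 9.98 and 9.24 against 8.83, 9.0 and 9.19. None of these 4 overlapped between genotypes and none passed the threshold.

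**Figure D5:**
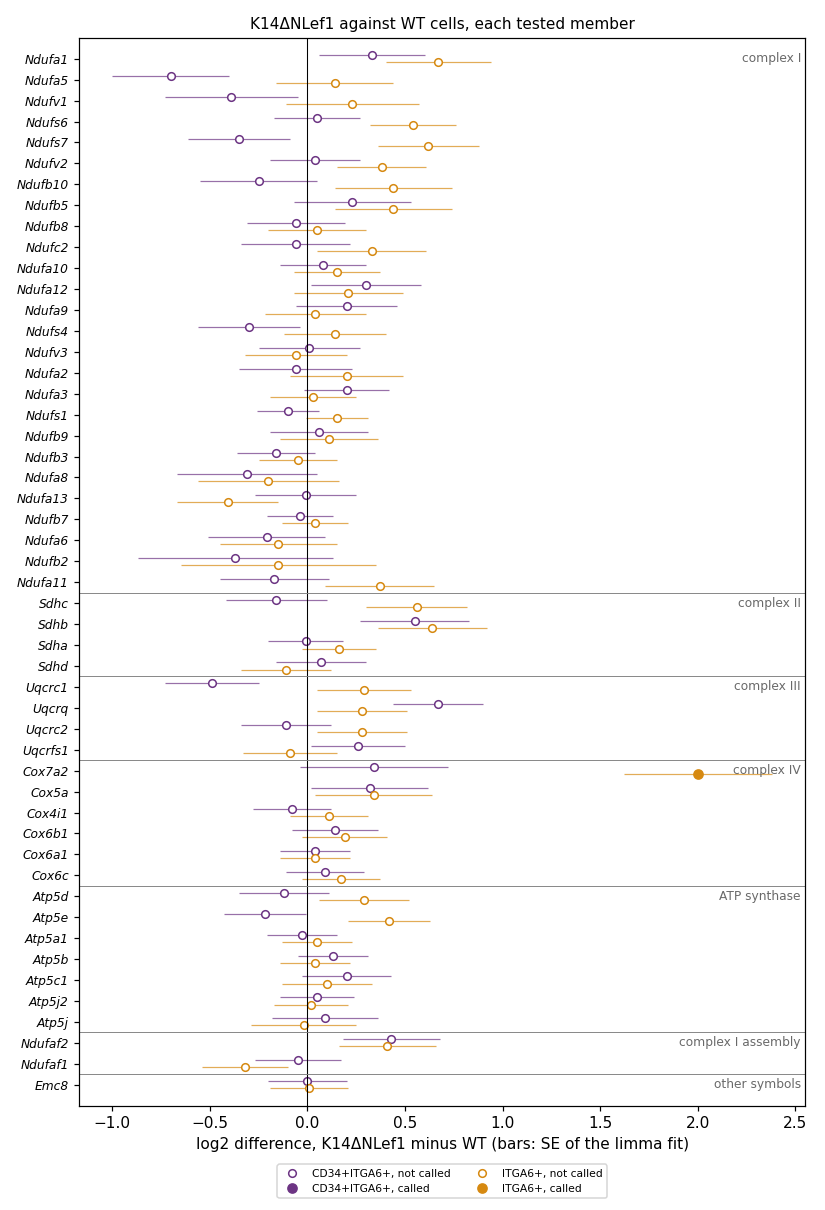
Log2 difference between K14ΔNLef1 and WT cells (x axis) for each tested member (y axis, by complex), in CD34+ITGA6+ (purple) and ITGA6+ (orange) cells, with bars for the SE of the limma fit and filled points for called members. Cox7a2 in ITGA6+ cells at 2.0 is the one filled point, and 40 of the 50 orange points lie right of 0 against 24 of the purple points.

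In CD34+ITGA6+ cells, 24 of 50 tested members were higher and 26 lower in K14ΔNLef1 mice, and the median difference was -0.01 against -0.03 over all genes. By limma 0 members were called, against 1.91% of all genes. At an unadjusted p under 0.05, 1 member was higher and 1 lower, against 237 and 335 of 5712 genes. Groups did not overlap for 3 members, 4.0% in the higher and 2.0% in the lower direction, against 12.7% of all genes in either. Without both replicate 2 arrays 31 of 50 were lower, the median was -0.08 and 0 were called. Uqcrq measured 9.51, 8.76 and 9.0 in K14ΔNLef1 against 8.71, 8.09 and 8.45 in WT arrays, a difference of 0.67 ± 0.23 (adjusted p = 0.219), with all 4 probe sets higher. Ndufa5, an accessory subunit near the ubiquinone site, measured 9.34, 8.45 and 8.56 against 9.45, 8.89 and 10.10, a difference of -0.70 ± 0.30 (adjusted p = 0.432). Over the 50 members the 95% confidence intervals reached from -1.44 to 1.16, so single members were bounded only loosely.

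The genotype effect in CD34+ITGA6+ cells minus that in ITGA6+ cells, which is also the difference of the population effect between genotypes, was negative for 36 of 50 members with a median of -0.10 against 0.02 over all genes. Without both CD34+ITGA6+ replicate 2 arrays it was negative for 37, with a median of -0.18 against 0.00. Without WT CD34+ITGA6+ replicate 2 alone 44 were negative (median -0.29), and without K14ΔNLef1 CD34+ITGA6+ replicate 2 alone 27 (median -0.01). By limma 0 members were called, against 1.54% of all genes. At an unadjusted p under 0.05, 288 of 5712 genes were positive and 258 negative, and 4 of 50 members, all negative, passed. These were Cox7a2 at -1.66 ± 0.54 (adjusted p = 0.222), Ndufs7 at -0.97 ± 0.37 (adjusted p = 0.353), Uqcrc1 at -0.78 ± 0.34 (adjusted p = 0.455) and Atp5e at -0.65 ± 0.30 (adjusted p = 0.501). The larger number of calls in K14ΔNLef1 than in WT cells is therefore not shown to be a difference between genotypes by this test.

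Genes that feed or regulate the respiratory chain were read from lists of known members for comparison, and of 58 calls named outside the respiratory complexes 27 held under every alternative run. Of 11 tested citrate cycle genes, 11 were lower in WT and 10 in K14ΔNLef1 CD34+ITGA6+ cells (all genes 66.6% and 65.8%), with medians of -0.40 and -0.39. Idh3g, a subunit of isocitrate dehydrogenase, fell in both (-0.76 ± 0.24 and -0.77 ± 0.24), each call being lost in 8 of 16 alternative runs. Fh1, fumarate hydratase, fell in K14ΔNLef1 cells (-0.65 ± 0.17), a call lost in 5 of 16 alternative runs. Of 10 tested electron carriers and exchangers, 9 were lower in each genotype. Etfb, which brings electrons from fatty acid oxidation, fell by 0.89 ± 0.20 in WT and 0.82 ± 0.20 in K14ΔNLef1 cells, and Gpd2, the mitochondrial glycerol phosphate dehydrogenase, by 0.92 ± 0.22 and 1.01 ± 0.22. Ucp2, an inner membrane carrier, fell in WT cells (-1.43 ± 0.30). Acad9, needed to assemble complex I, fell in both genotypes (-0.84 ± 0.22 and -0.90 ± 0.22) among 18 tested assembly factors outside the symbol pattern, of which 15 were lower in WT and 13 in K14ΔNLef1 cells. Cox18, which inserts a subunit of complex IV, was called higher in K14ΔNLef1 CD34+ITGA6+ cells (0.60 ± 0.19, adjusted p = 0.0493). That call was lost in 13 of 15 alternative runs, including all 6 without 1 array.

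At the entry of pyruvate into mitochondria, Pdk2, a kinase that switches off pyruvate dehydrogenase, rose in WT CD34+ITGA6+ cells by 0.96 ± 0.21 (adjusted p = 0.00548). Mpc2, a subunit of the pyruvate carrier, and Pdhb, a subunit of pyruvate dehydrogenase, fell in K14ΔNLef1 CD34+ITGA6+ cells by 1.54 ± 0.30 and 0.91 ± 0.27. The Pdhb call was lost in 7 of 16 alternative runs. The 12 tested glycolysis genes were divided, with 6 higher and 6 lower for the transgene in ITGA6+ cells, 5 higher and 7 lower in WT and 4 higher and 8 lower in K14ΔNLef1 CD34+ITGA6+ cells. Slc2a1, the glucose transporter of the plasma membrane, and Pfkl, a phosphofructokinase, fell in WT cells by 1.24 ± 0.32 and 0.67 ± 0.17, and Aldoc, an aldolase, rose in K14ΔNLef1 cells by 1.22 ± 0.31. Ldhb, a lactate dehydrogenase subunit, rose in K14ΔNLef1 ITGA6+ cells by 1.16 ± 0.26, and Pfkp, a phosphofructokinase, fell there by 0.67 ± 0.16. Each of these glycolysis calls was lost in some alternative runs. The losses were 3 of 16 for Slc2a1, 5 of 15 for Pfkl, 2 of 16 for Aldoc, 3 of 15 for Ldhb and 5 of 15 for Pfkp.

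Hk2, a hexokinase that binds the outer mitochondrial membrane, was low in 1 group. It measured 6.68, 6.61 and 6.57 in WT ITGA6+ arrays, against 8.70, 8.37 and 8.57 in K14ΔNLef1 ITGA6+, 8.29, 7.98 and 8.27 in WT CD34+ITGA6+ and 8.45, 7.96 and 8.14 in K14ΔNLef1 CD34+ITGA6+ arrays. It rose by 1.92 ± 0.18 (adjusted p = 1.34e-05) with the transgene in ITGA6+ cells and was higher by 1.56 ± 0.18 (adjusted p = 3.36e-05) in WT CD34+ITGA6+ than ITGA6+ cells. The genotype effects in the 2 populations differed by the test of that difference (-1.92 ± 0.26, adjusted p = 0.00117), and all 3 calls held under every alternative run.

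Of 10 tested regulators of mitochondrial biogenesis, Ppargc1a, the coactivator PGC-1α that turns on respiratory genes through NRF1 and other factors, was called for the genotype. It measured 9.66, 9.35 and 9.32 in K14ΔNLef1 ITGA6+ arrays against 7.37, 5.60 and 7.61 in WT ITGA6+ arrays, and 7.88, 5.58 and 7.18 in WT and 7.21, 8.15 and 6.96 in K14ΔNLef1 CD34+ITGA6+ arrays. The K14ΔNLef1 ITGA6+ arrays were above all others. Whether Ppargc1a has a part in the members' differences was not tested. Ppargc1a rose by 2.58 ± 0.56 (adjusted p = 0.0135) with the transgene in ITGA6+ cells, and fell by 2.0 ± 0.56 (adjusted p = 0.0299) from ITGA6+ to CD34+ITGA6+ cells in K14ΔNLef1 mice. The first call was lost without WT ITGA6+ replicate 2 or K14ΔNLef1 ITGA6+ replicate 1 (adjusted p up to 0.0584), the second without any one of 5 of the 6 arrays compared, and the difference between populations was not called (-2.02 ± 0.79, adjusted p = 0.377). Pprc1, a related coactivator, fell in WT CD34+ITGA6+ cells by 0.86 ± 0.21.

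Cell cycle genes moved with the populations as well. All 9 tested members of a proliferation list were lower in CD34+ITGA6+ cells of both genotypes. In each genotype 7 were called, against 11.5% of all genes called lower in WT and 8.28% in K14ΔNLef1 cells. The medians were -1.26 in WT and -1.23 in K14ΔNLef1 cells, for example Mcm6 (-1.63 ± 0.24 and -1.23 ± 0.24) and Top2a (-1.60 ± 0.34 and -1.19 ± 0.34). In K14ΔNLef1 ITGA6+ cells 4 of the 9 were called higher than in WT, against 2.08% of all genes, and 3 were lower, down to -0.47. Of the 4 calls only Ube2c, at 1.49 ± 0.26, held without each array in turn, and Cdk1 was lost in all 6 such runs, Bub1b in 5 and Tpx2 in 4. In CD34+ITGA6+ cells 8 of the 9 were higher with the transgene, with a median of 0.48. Cdk1 alone was called there (1.12 ± 0.23, limma adjusted p = 0.0192), and that call was lost in 4 of 6 such runs. The mean level of the list was 6.83 to 7.21 in WT and 7.32 to 7.75 in K14ΔNLef1 CD34+ITGA6+ arrays, and 7.71 to 8.37 in WT and 8.61 to 8.77 in K14ΔNLef1 ITGA6+ arrays, so the K14ΔNLef1 ITGA6+ arrays were highest here too. Of the suprabasal keratinocyte markers, 2 were tested and both fell in WT CD34+ITGA6+ cells, with differences of -1.43 and -2.15, and the same differences in K14ΔNLef1 cells were -0.42 and -0.60. In K14ΔNLef1 ITGA6+ cells these markers differed from WT by -0.51 and -0.70, without overlap and not called. Of 2 tested sebocyte markers 1 was called lower in CD34+ITGA6+ cells of each genotype (-1.68 in WT and -2.13 in K14ΔNLef1), and the other differed by -0.15 and -0.34. Of 2 tested fibroblast markers 1 was called higher (0.71 and 0.62), and the other differed by 0.14 in each. Of 2 tested adipocyte markers 1 was called higher (4.50 and 3.25) and the other differed by -0.05 and -0.33. That list held Adipoq, Fabp4 and Lep, and its mean level was 6.04 to 7.84 in CD34+ITGA6+ and 5.53 to 5.98 in ITGA6+ arrays. The part of cell cycle genes and of the cell types these markers stand for in the members' differences was not tested.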

How the data were processed

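RNA from the 12 sorted cell samples was amplified, biotin labelled and hybridised to Affymetrix Mouse Exon 1.0 ST arrays. The authors deposited linear intensities obtained by RMA (background correction, quantile normalisation and probe summary), with Affymetrix Power Tools and genome build mm9 also named in the submitters' notes, whose versions are not given in the sources used here. How the 114330 probe sets of the table were selected is not given either. Intensities were converted to log2. Of the probe sets, 109796 (96.0%) carried 1 symbol, 836 carried several and were not used, and 3698 carried none. Symbols were updated through RefSeq (10030 current, 1240 replaced, 27 kept as given), and 5 genes whose current symbol alone fits the pattern were not taken as members.

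A linear model of the 4 group means was fitted across the 12 arrays (R 4.3.3, limma 3.58.1, 8 residual degrees of freedom), on genes above the array median in at least 3 arrays, and 5 comparisons were tested (the genotype in each population, the population in each genotype, and the difference of these effects), with a threshold of 0.05. The fit was tested on simulated data with independent noise. These held no shift of whole arrays, so the test cannot speak to arrays that are low throughout. The number of arrays limits the precision. Members and gene lists were chosen with earlier results of these data known. Members named are those called, up to 3 per complex with the lowest p in a comparison, tissue isoforms and those left out by the filter, with others named to complete a complex, and up to 5 called genes with the lowest adjusted p from other lists.

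The main fit used no pairing in either genotype. Deviations of same-numbered arrays from their group means correlated at 0.109, 0.119 and 0.233 between the WT populations. They correlated at 0.069, 0.133 and 0.127 between the K14ΔNLef1 populations. Different-numbered arrays correlated at -0.16 to 0.047 in WT and -0.118 to -0.006 in K14ΔNLef1 mice. These values give no ground for treating the genotypes differently, so the block is reported for both. Alternatives were array centring, quantile normalisation, the mean over probe sets, no filter and a stricter one, fits to the compared arrays alone, a replicate block, a variance trend, and each array left out. The block within a genotype and the fit without both replicate 2 arrays of CD34+ITGA6+ cells were added after seeing the data.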

Additional observations from a re-analysis of the deposited data

Results flagged for a closer look

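The genotype effect on Hk2 differed between the populations by the limma fit's test of that difference, at -1.92 ± 0.26 (adjusted p = 0.00117), from 1.92 ± 0.18 in ITGA6+ and 0.00 ± 0.18 in CD34+ITGA6+ cells. Cox18 was higher with the transgene in every CD34+ITGA6+ array and lower in every ITGA6+ array than in any WT array of that population, but the limma test of that difference, 1.05 ± 0.26, did not reach the threshold (adjusted p = 0.0667). Mrps10, a protein of the mitochondrial ribosome, lay apart the opposite way, lower with the transgene in CD34+ITGA6+ arrays and higher in ITGA6+ arrays, and its difference of -0.81 ± 0.28 was not called either (limma adjusted p = 0.256).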

How the results depend on the processing

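The number of members called moved most. For the genotype effect in ITGA6+ cells it went from 1 to 0 with the mean over probe sets, to 0 with the stricter filter, which Cox7a2 does not pass, and to 2 without both CD34+ITGA6+ replicate 2 arrays. For the population difference in WT it went from 6 to 3 with the mean over probe sets, with only the arrays compared, with the replicate block within the genotype and without both replicate 2 arrays, and ran from 1 to 6 with each array left out. For the population difference in K14ΔNLef1 cells it went from 9 to 2 without both replicate 2 arrays and ran from 0 to 14 with each array left out. The replicate block over all 12 arrays gave 6 calls in WT and 12 in K14ΔNLef1 cells, and the block within the genotype gave 11 in K14ΔNLef1 cells. Of 16 calls of members, 15 were lost under at least 1 alternative and 0 changed sign. The cause was not tested.

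With each array left out the members' median difference ran from -0.42 to -0.13 for the population in WT, from -0.65 to -0.36 for the population in K14ΔNLef1 cells, from 0.10 to 0.25 for the genotype in ITGA6+ cells, from -0.15 to 0.10 for the genotype in CD34+ITGA6+ cells and from -0.29 to -0.01 for the difference of effects. Of 61 uncalled results of named members, 11 changed sign. Without both replicate 2 arrays Sdhd was -0.25 and Atp5b -0.01 for the genotype in CD34+ITGA6+ cells, Uqcrc2 was 0.05 for the population in WT, and Sdhd and Atp5b were -0.14 and -0.05 for the difference of effects. With the mean over probe sets Sdhc was -0.06 for the population in WT. With each array left out, the genotype effect in CD34+ITGA6+ cells ran from -0.03 to 0.52 for Ndufa1, -0.37 to 0.01 for Sdhc, -0.14 to 0.28 for Sdhd, -0.06 to 0.36 for Cox6b1, 0.00 to 0.42 for Atp5c1 and -0.04 to 0.22 for Atp5b. The population difference in WT ran from -0.09 to 0.34 for Sdhc and -0.27 to 0.05 for Uqcrc2, and the difference of effects from -0.03 to 0.39 for Sdhd, -0.23 to 0.05 for Cox6c and -0.08 to 0.18 for Atp5b.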

Other observations

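Proteins of the mitochondrial ribosome, which translates the subunits encoded by mitochondrial DNA, were lower in CD34+ITGA6+ cells for 52 of 59 tested genes in each genotype, with medians of -0.32 in WT and -0.41 in K14ΔNLef1 cells against -0.17 and -0.15 over all genes. By limma 3 were called lower in WT (5.08%, against 11.5% of all genes) and 8 in K14ΔNLef1 cells (13.6%, against 8.28%), and of the WT calls Mrpl3 and Mrpl54 were lost with centred arrays and Mrps28 without both replicate 2 arrays. Mrps28 fell in both, by 1.38 ± 0.39 and 1.26 ± 0.39, and its K14ΔNLef1 call was lost in 8 of 15 alternative runs. Mrpl43, Mrpl50 and Mrpl40 fell in K14ΔNLef1 cells by 1.49 ± 0.31, 1.10 ± 0.24 and 1.24 ± 0.29. In ITGA6+ cells 35 of the 59 were higher with the transgene, with a median of 0.07, and 0 were called by limma. At an unadjusted p under 0.05, 3 were higher and 0 lower, against 329 and 543 of 5712 genes. Of 8 listed mitochondrial antioxidant genes 4 were tested, and 0 were called in any comparison, with 1 at an unadjusted p under 0.05 in WT cells.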
